A study of Homo sapiens with 12 samples.

Results

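The genes described here are the EGR zinc-finger transcription factors EGR1, EGR2, EGR3 and EGR4, their NAB corepressors NAB1 and NAB2, and the immediate early genes ARC, IER2, IER5 and NR4A1. They were chosen by symbol, as every entry of the deposited expression table that carries one of these 10 names, and 9 of the 10 names were found among 25787 entries with a gene symbol. No entry carried the symbol IER5, so it was not analysed here. The set was proposed with the response of EGR1 and related genes to YK-4-279 already known, so the members' values in the drug comparison, and in those that share its libraries, are a description and carry no test. Values of siDHX9 against scrambled were also known by then, so the p values of members there do not come from an unseen comparison.

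RNA was sequenced from TC-71, an Ewing sarcoma cell line with the EWS-FLI1 fusion, in 12 libraries that form 4 groups of 3 biological replicates per the labels. One pair of groups received YK-4-279, a compound made to disturb the contact between EWS-FLI1 and the RNA helicase DHX9, at 2 mM as labelled, or its solvent DMSO, each for 16 hours. The other pair was transfected with an oligonucleotide against DHX9 (siDHX9) or with a scrambled control, and its cells were harvested at 48 hours. The protocols speak of siRNAs and the design text of shRNAs, no genotype beyond wild type is labelled, and a single cell line stands behind all groups. The drug pair and the transfected pair differ in transfection and in time together, so these cannot be told apart when the pairs are set side by side. In such RNA from whole cultures, a change in the number of responding cells and a change in RNA per cell cannot be told apart either.

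Immediate early genes are switched on within minutes of a growth, stress or membrane signal without new protein synthesis, and most of their transcripts decay soon after. ERK signalling drives many of them through serum response factor (SRF) and its ternary complex partners, which bind CArG boxes, and through CREB, which binds cAMP response elements. EGR proteins bind GC-rich sites through zinc fingers, and the NAB proteins, whose NAB2 gene is itself an EGR target, bind EGR1, EGR2 and EGR3 and repress their activity with the NuRD complex.

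Sequence around the transcription starts of the members is shown to place these elements beside the levels. RefSeq windows on GRCh38.p14 from 250 bases before to 50 bases after a start were available for 8 of the 10 members, 13 windows in all, and there was none for EGR3 or ARC. Stretches of 4 members are printed: EGR1 and EGR2 for their CArG boxes, NAB2 for its EGR site, and IER2 as a member that differed with the drug and had neither. Both strands were searched for 5 motifs. A CArG box is present in 1.29% of all 35116 windows of this length, GCGNGGGCG (the EGR site) in 9.43%, TGACGTCA (the full cAMP response element) in 1.85%, its part TGACG in 24.6%, and CCGGAA (an ETS core) in 17.2%. The stretches come from chr5:138465229-138465478 (plus strand, the 250 bases before the start) for EGR1, chr10:62816417-62816466 (minus strand) for EGR2, chr12:57089042-57089070 (plus strand) for NAB2 and chr19:13150251-13150410 (plus strand) for IER2, all 5′ to 3′ on the gene's strand. Capitals mark the CArG boxes and the EGR site in EGR1, the CArG box in EGR2, the EGR site in NAB2, and in IER2 a TGACG and a CCGGAA match, both read on the opposite strand.
EGR1: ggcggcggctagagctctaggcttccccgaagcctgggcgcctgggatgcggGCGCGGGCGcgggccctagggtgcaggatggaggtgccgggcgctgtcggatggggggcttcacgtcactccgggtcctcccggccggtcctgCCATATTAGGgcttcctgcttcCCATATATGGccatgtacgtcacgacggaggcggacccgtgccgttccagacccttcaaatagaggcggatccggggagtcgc
EGR2: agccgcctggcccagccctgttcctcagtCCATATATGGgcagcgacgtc
NAB2: tgtgcgtcctGCGGGGGCGgaggcgcgga
IER2: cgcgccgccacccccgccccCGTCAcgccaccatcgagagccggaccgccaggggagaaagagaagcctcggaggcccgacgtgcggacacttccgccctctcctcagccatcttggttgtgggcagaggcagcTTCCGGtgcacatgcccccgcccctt

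EGR1 carried CArG boxes 105 to 96 and 83 to 74 bases before its start, an EGR site at 198 to 190 bases, and 2 TGACG matches beginning 135 and 66 bases before it. EGR2 had a CArG box 71 to 62 bases before the start of 1 of its 3 windows. NAB2 had an EGR site 62 to 54 bases before its start, and 2 of the 3 NAB1 windows, which overlap each other, held 3 and 4 EGR sites. IER2, EGR4 and NR4A1 windows held no CArG box, and no member window held TGACGTCA. A match is a string of letters and not a measured binding site.

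Levels below are normalised read counts, the reads of a gene divided by the library's size factor, with n = 3 libraries per group, given for replicates 1, 2 and 3 in that order. Fold changes and log2 changes come from log2(value + 1), which understates the change of low genes. The depth was 38.6 to 65.5 (in units of 1e6 reads) per library, and for reads of 1 to 20 an entry's number was even in 71.9 to 75.3% of cases, against 49.8 to 51.0% above 200 reads. The reads of EGR3 and of EGR4 were even in number in 12 of 12 libraries, and the sources used here do not say how the mates of read pairs were counted. All 7 Ewing sarcoma markers listed were above the minimum level in the fit, with a summed level of 47890 to 60370, while PTPRC, EPCAM, PECAM1 and PDGFRA together reached 5.55 to 28.9 and PECAM1, the endothelial marker, was near 0. The fibroblast-associated DCN, at 183 to 599, was higher in siDHX9 than in scrambled libraries (log2 1.03 ± 0.21 SE, limma adjusted p = 0.00546).

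The knockdown was partial. The entry that DHX9 shares with its neighbour NPL averaged 20610 ± 1100 normalised counts after siDHX9 and 32690 ± 2130 after the scrambled control (SD, n = 3 each), 37% lower (log2 −0.66 ± 0.07 SE, limma adjusted p = 4.54e-05; exact two-sided permutation p = 0.1, the smallest possible with 3 against 3). Scrambled replicates 1 and 2 stood apart from replicate 3 in 11 genes of the integrated stress response, a list chosen after these libraries were seen. The mean of these genes, as log2 from each gene's own average, was −0.54 to −0.48 with YK-4-279, −0.61 to −0.44 in DMSO, −0.27 to 0.07 in siDHX9, and 1.64, 1.38 and 0.18 in scrambled replicates 1, 2 and 3. Calls against the scrambled group are therefore given also without replicates 1 and 2, a fit in which scrambled replicate 3 is assumed to vary like the other groups. With 1 scrambled library that fit called far fewer genes of the whole table. The loss of a call there is therefore not read as a result about that gene or list.

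EGR1 (GSHG0024271, hg19 chr5:137801169-137805189), the EGR member induced by growth factors in most cell types, had 1249.5, 1045 and 1239 normalised counts with YK-4-279, against 166, 159 and 125 in DMSO. In siDHX9 libraries it had 85.9, 64.0 and 82.1, against 338, 263 and 127 in scrambled libraries. The drug libraries lay above all 9 others, and the siDHX9 libraries below all 9 others. The drug difference was 7.84-fold (log2 2.97 ± 0.27 SE), with means of 1178 ± 115 for YK-4-279 and 149.9 ± 22.3 for DMSO.

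Lowered DHX9 went with less EGR1, 77.35 ± 11.7 in siDHX9 and 242.5 ± 107 in scrambled libraries, 2.9-fold lower (log2 −1.53 ± 0.27 SE, limma adjusted p = 0.00266 over 14225 genes). That p rests on a spread shared by all 4 groups, and with only these 6 libraries fitted the limma adjusted p was 0.0356. In the scrambled group, replicates 1 and 2, with the high stress genes, were also those with the most EGR1. Without them the difference was −0.72 on the log2 scale, 1.64-fold lower, and was not called (adjusted p = 0.116). The siDHX9 mean was also 1.94-fold below that of DMSO, which shares neither the transfection nor the harvest time. The scrambled mean was 1.62-fold above that of DMSO with overlapping libraries. Whether the stress genes take part in the EGR1 difference was not tested.

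EGR2 (GSHG0004110, hg19 chr10:64571757-64578927), known for myelination and T-cell tolerance, had 151, 128 and 154 normalised counts with YK-4-279 and 141, 90.4 and 77.0 in DMSO. It had 82.8, 112 and 88.6 in siDHX9 and 96.5, 104.5 and 87.8 in scrambled libraries. The drug range overlapped that of DMSO through DMSO replicate 1, and the transfected groups overlapped throughout. The log2 change was 0.53 ± 0.22 SE with the drug, and −0.04 for siDHX9 against scrambled (95% interval −0.50 to 0.43, limma adjusted p = 0.924). The 3 groups without drug overlapped one another.

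EGR3 (GSHG0029459, hg19 chr8:22545174-22550815), an EGR member of lymphocytes and muscle spindles, rested on few reads. There were 22, 20 and 30 reads with YK-4-279 and 8, 8 and 0 in DMSO, or 24.7 ± 5.12 and 4.637 ± 4.13 normalised counts, a ratio of means of 5.33. The siDHX9 libraries had 2.07, 5.49 and 2.16 normalised counts and the scrambled libraries 3.61, 3.70 and 7.98. All 3 drug libraries lay above the 9 others, and the groups without drug overlapped each other. Its mean over the 12 libraries, 9.42, was under the minimum of 10, so it did not enter the fit.

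EGR4 (GSHG0017730, hg19 chr2:73518052-73520837), an EGR member found mainly in neurons and germ cells, had 88.6, 88.5 and 103 normalised counts with YK-4-279 and 41.8, 41.7 and 46.2 in DMSO. It had 18.6, 7.32 and 10.8 in siDHX9 and 10.8, 9.25 and 18.0 in scrambled libraries. The 4 groups thus formed 3 levels, with the drug above DMSO and DMSO above both transfected groups. The drug difference was 2.13-fold (log2 1.09 ± 0.34 SE). The siDHX9 difference was −0.08 on the log2 scale with a wide interval, −0.82 to 0.65 (limma adjusted p = 0.889).

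**Figure D1:**
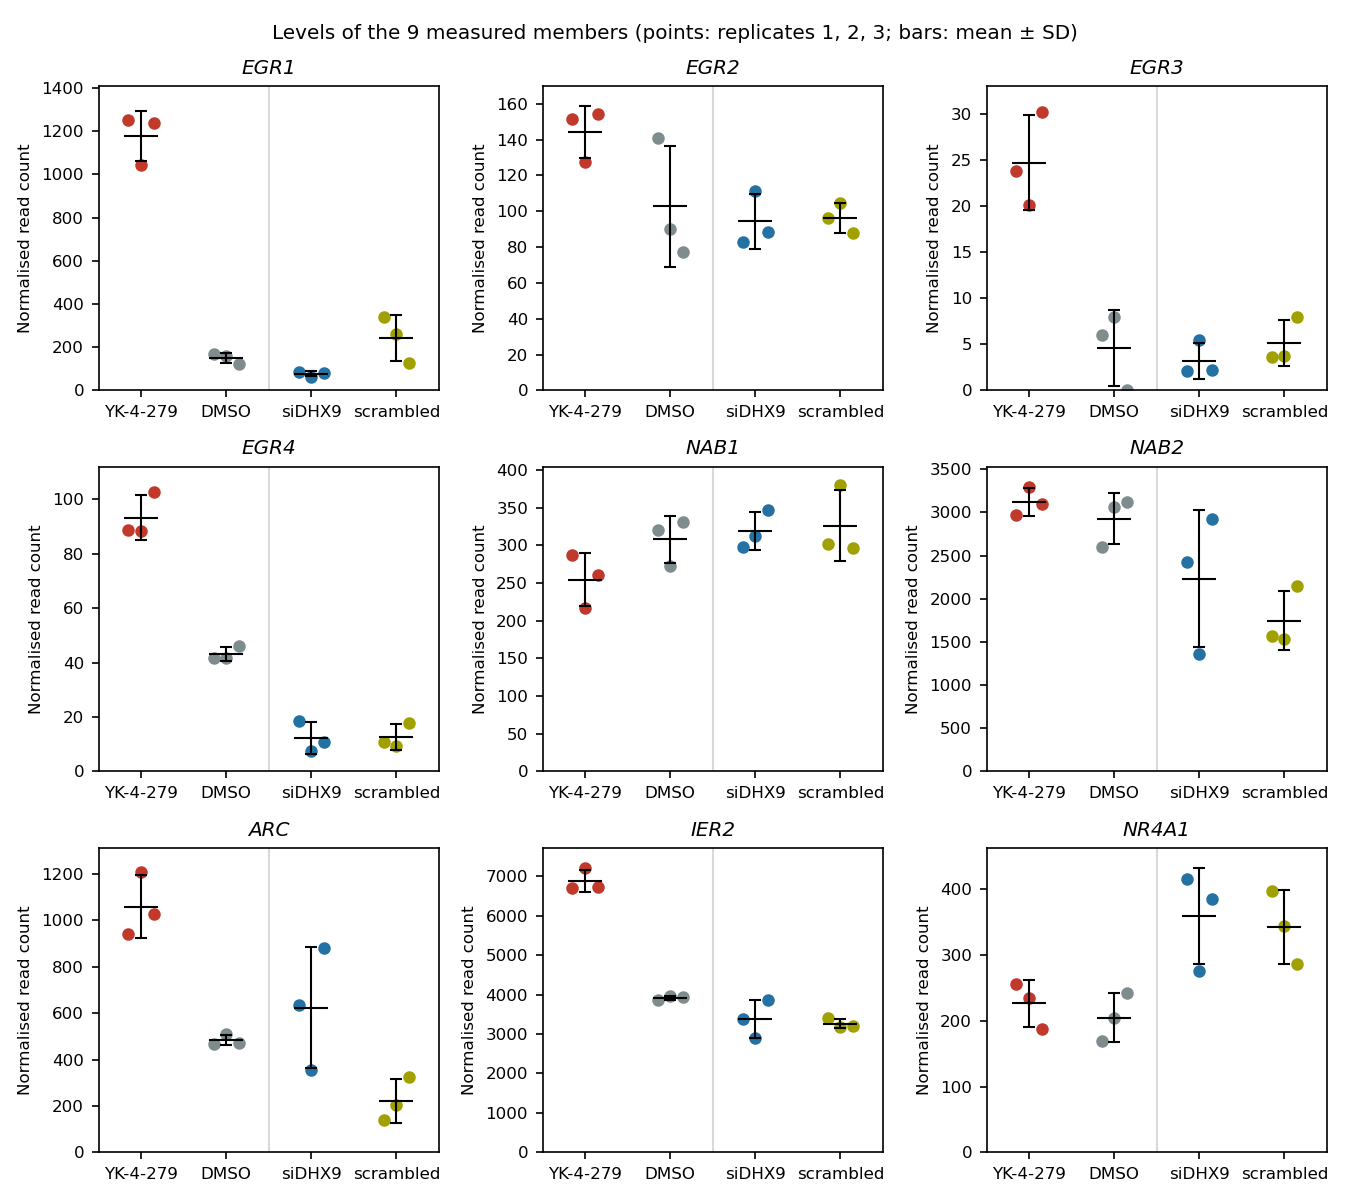
Normalised read counts (vertical axes, each from 0) of the 9 measured members in the YK-4-279, DMSO, siDHX9 and scrambled groups (horizontal axes); points are replicates 1, 2 and 3 from left to right, the horizontal lines the mean and the bars ± SD, n = 3. EGR1, EGR3, EGR4, ARC and IER2 had all 3 YK-4-279 points above all 3 DMSO points, and siDHX9 points lay apart from scrambled points for EGR1, where they were lower, and ARC, where they were higher.

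The NAB corepressors did not follow EGR1. NAB1 (GSHG0017067, hg19 chr2:191513621-191557492) ranged from 217 to 286 normalised counts with YK-4-279, 272 to 331 in DMSO, 298 to 347 in siDHX9 and 296 to 380.1 in scrambled libraries. Each of these ranges overlapped the next. Its log2 change was −0.28 ± 0.14 SE with the drug and −0.02 for siDHX9 against scrambled (limma adjusted p = 0.926).

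NAB2 (GSHG0118885, hg19 chr12:57482677-57489266), which lies next to STAT6 and shares 77 bases with its entry, had 2964, 3293 and 3102 normalised counts with YK-4-279 and 2593, 3065 and 3125 in DMSO. It had 2421, 1358 and 2922 in siDHX9 and 1565, 1529.5 and 2146 in scrambled libraries. The drug and DMSO overlapped, at a log2 change of 0.10 ± 0.21 SE, beside the 7.84-fold difference of EGR1. The siDHX9 libraries spread widely, with replicate 2 lowest. The siDHX9 change was 0.30 on the log2 scale (limma adjusted p = 0.344), and 0.62 without siDHX9 replicate 2 (adjusted p = 0.00456). Reads from NAB2 and from STAT6, whose mean was 3200, cannot be told apart where the entries overlap.

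ARC (GSHG0029909, hg19 chr8:143692405-143695833), an activity-regulated protein of neurons that forms capsid-like particles, was higher in both treatments. It had 939, 1207 and 1028 normalised counts with YK-4-279, against 468, 508 and 473 in DMSO. It had 635, 357 and 879.8 in siDHX9, against 139, 204 and 323 in scrambled libraries. Neither pair overlapped, although siDHX9 replicate 2 came close to scrambled replicate 3, and the siDHX9 group overlapped DMSO.

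The ARC difference was 2.18-fold with the drug (log2 1.12 ± 0.30 SE). For siDHX9 against scrambled it was 2.78-fold (log2 1.48 ± 0.30 SE, limma adjusted p = 0.00552), with means of 623.9 ± 262 and 222.1 ± 93.5. That call was lost when only these 6 libraries were fitted (adjusted p = 0.0516) and without scrambled replicates 1 and 2, where the log2 change was 0.85 (adjusted p = 0.232). Scrambled replicates 1 and 2, with the high stress genes, had the least ARC of the 12 libraries, and whether these genes take part was not tested. The scrambled mean was 2.17-fold below that of DMSO, while the siDHX9 mean was 1.29-fold above it.

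IER2 (GSHG0014626, hg19 chr19:13261282-13265716), a nuclear protein of the early growth response, had 6693, 7199.9 and 6736 normalised counts with YK-4-279 and 3859, 3954 and 3941 in DMSO. It had 3373, 2893 and 3856 in siDHX9 and 3394, 3189 and 3203 in scrambled libraries. The drug libraries lay above all others with a small spread. The drug difference was 1.75-fold (log2 0.81 ± 0.09 SE), and the siDHX9 change was 0.04 (limma adjusted p = 0.793).

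NR4A1 (GSHG0006673, hg19 chr12:52431498-52453290), an orphan nuclear receptor induced with the EGR genes in many cells, had 256, 235 and 187 normalised counts with YK-4-279 and 169, 204 and 243 in DMSO. It had 415, 276 and 385 in siDHX9 and 398, 344 and 286 in scrambled libraries. Here the levels followed the pair and not the treatment: the groups overlapped within each pair, and both transfected groups lay above both others. The log2 change was 0.15 ± 0.19 SE with the drug and 0.06 for siDHX9 against scrambled (limma adjusted p = 0.864).

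With YK-4-279, 4 of the 8 members above the minimum were called higher at a limma adjusted p under 0.05 (EGR1, EGR4, ARC and IER2), beside 7.33% of all 14225 genes tested. Since the members were proposed with this comparison known, nothing is read from that count. Leaving out any 1 of the 6 drug or DMSO libraries ended the calls of EGR4 and ARC. The EGR4 call was also lost without scrambled replicate 1, a library outside this comparison. Without DMSO replicate 1, EGR2 was called as well. All 3 drug libraries exceeded all 3 DMSO libraries for 5 of the 9 measured members, beside 23.2% of genes tested. Of these 5, EGR3 was under the minimum and so not among the genes tested. The ribosomal RNA share of the reads was 8.79% ± 1.07 for YK-4-279 and 5.19% ± 0.245 for DMSO (SD, n = 3 each), and its part in these differences was not tested.

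For siDHX9 against scrambled, 1 member was called higher (ARC), beside 8.75% of genes, and 1 lower (EGR1), beside 7.97%. The same 2 members had groups that did not overlap, ARC higher, beside 14.9% of genes, and EGR1 lower, beside 14.4%. Earlier results of these data, with values of this comparison among them, were known when the members were proposed, so nothing is read from these counts. With scrambled replicates 1 and 2 left out, the log2 change was −0.72 for EGR1 and 0.85 for ARC, and the scrambled group held 1 library. On all libraries edgeR and DESeq2 each called EGR1 and ARC, and both stayed called by limma without any 1 library. The median log2 change of the 8 members was 0.01, beside −0.002 for all genes. It was 0.67 in the drug comparison, beside 0.02 for all genes. The ribosomal RNA share of the reads was 2.71% ± 0.917 for siDHX9 and 4.09% ± 0.964 for scrambled libraries (SD, n = 3 each), and its part was not tested either.

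**Figure D2:**
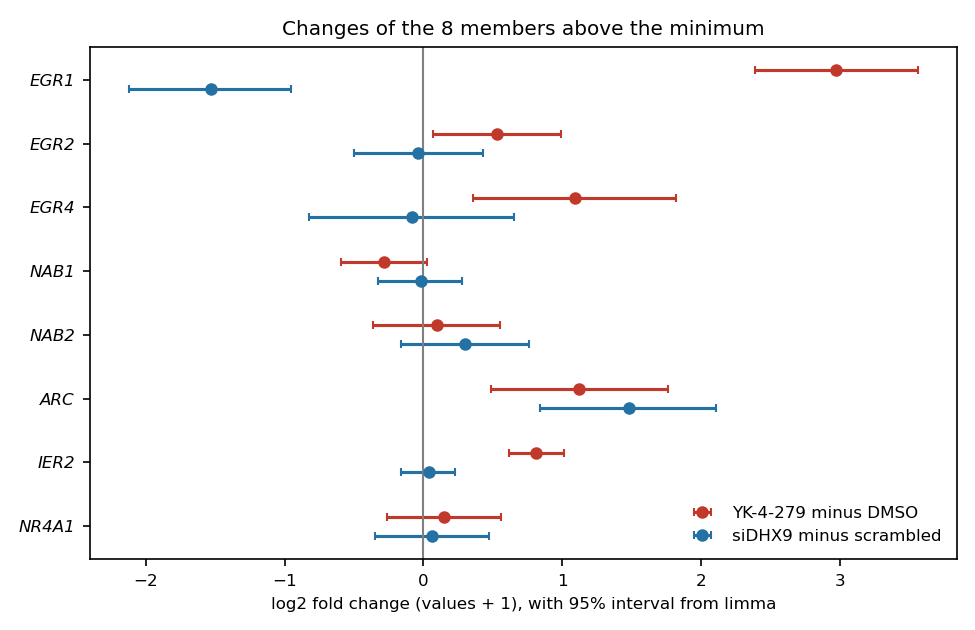
Log2 fold changes of normalised counts + 1 (horizontal axis) with 95% intervals from limma for the 8 members above the minimum (rows), for YK-4-279 minus DMSO (red, upper) and siDHX9 minus scrambled (blue, lower). EGR1 points to opposite sides, at 2.97 and −1.53, ARC to the same side, at 1.12 and 1.48, and IER2 is away from 0 with the drug, at 0.81, and near it for siDHX9, at 0.04.

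The drug effect minus the siDHX9 effect was 4.51 ± 0.38 SE on the log2 scale for EGR1 and 0.77 ± 0.13 SE for IER2. For ARC the difference was −0.35 ± 0.42 SE (95% interval −1.25 to 0.55). The contrast contains the drug comparison, so these values are a description.

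The controls of the 2 pairs differed for several members. In scrambled libraries against DMSO, which is the control of the drug comparison too, EGR4 was 3.41-fold lower, ARC 2.17-fold lower, NAB2 1.68-fold lower and NR4A1 1.67-fold higher by their means. Of the 8 members above the minimum, limma called 3 lower and 1 higher, beside 9.22% and 9.7% of all genes. Without scrambled replicate 1, or without DMSO replicate 2, EGR4 alone was called. The DMSO libraries are those of the drug comparison, so these values too are a description. EGR4 had similar levels in siDHX9 and scrambled libraries, 12.25 ± 5.79 and 12.68 ± 4.64, while ARC was higher in siDHX9.

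**Figure D3:**
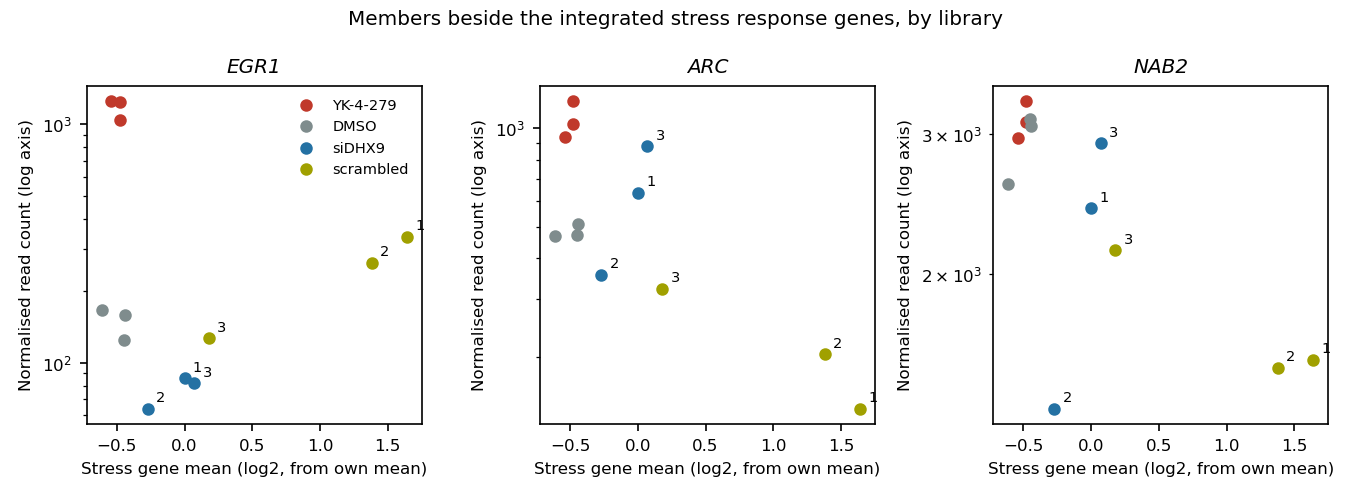
Normalised read counts of EGR1, ARC and NAB2 (vertical log axes) against the mean log2 level of 11 stress genes, each from its own average (horizontal axis); points are the 12 libraries in 4 colours, with replicate numbers beside the siDHX9 and scrambled points. Scrambled replicates 1 and 2, at 1.64 and 1.38, had more EGR1 (338 and 263) and less ARC (139 and 204) than scrambled replicate 3 (127 and 323).

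Other immediate early genes were taken as a list of 44, with entries for 41 (none for JUN, JUNB or RHOB) and 40 above the minimum. With YK-4-279, 10 rose and 1 fell by limma, beside 7.33% and 6.49% of all genes, and the median log2 change was 0.35. FOSB, an AP-1 subunit whose entry lies within that of the more highly counted ERCC1, had 485, 519.8 and 591 normalised counts with YK-4-279 and 41.0, 66.5 and 29.5 in DMSO, while siDHX9 libraries had 33.1 to 69.2 and scrambled libraries 38.9 to 44.4. Its drug libraries thus lay above all others, as those of EGR1 did (log2 3.59 ± 0.29 SE, limma adjusted p = 8.28e-06).

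FOS, the AP-1 subunit with a well-studied SRF site, had 3545, 3401 and 3937 normalised counts with YK-4-279 and 735, 673 and 409.6 in DMSO. It had 33.57 ± 5.28 in siDHX9 and 33.44 ± 6.99 in scrambled libraries. The drug libraries were highest and both transfected groups far below DMSO, 17.3-fold for scrambled (limma adjusted p = 2.57e-07), with overlapping levels in siDHX9 and scrambled libraries. FOSL1 rose by a log2 change of 1.36 ± 0.28 SE with the drug (adjusted p = 0.00683), and CTGF, a secreted matrix protein, by 1.09 ± 0.33 SE (adjusted p = 0.0418). FOS, FOSB and FOSL1 stayed called without any 1 library. The CTGF call was lost without any 1 of the 6 drug or DMSO libraries or scrambled replicate 1 (highest adjusted p = 0.15). Without any 1 of those 6, 5 to 7 of the 40 were called, beside 858 to 1151 of all 14225 genes.

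For siDHX9 against scrambled, 8 of the 40 rose and 2 fell, beside 8.75% and 7.97% of all genes, with a median of 0.22. The largest change was that of ATF3, a stress-induced transcription factor, at −1.92 ± 0.50 SE on the log2 scale (limma adjusted p = 0.0212). Its levels were 39.3, 71.35 and 50.8 in siDHX9 and 366, 340.3 and 64.8 in scrambled libraries, so scrambled replicates 1 and 2 were high and replicate 3 lay within the siDHX9 range. BTG2, an antiproliferative factor, rose by 1.10 ± 0.17 SE (adjusted p = 0.000913), the kinase SIK1, whose entry is shared with SIK1B, by 0.93 ± 0.22 SE (adjusted p = 0.0123), and ID2, an inhibitor of basic helix-loop-helix factors, by 0.88 ± 0.20 SE (adjusted p = 0.00961). Without scrambled replicates 1 and 2, 3 of the 40 were called. BTG2 was among them at 0.71 (adjusted p = 0.00654), while ATF3 was at −0.31 (adjusted p = 0.748), SIK1 at 0.22 (adjusted p = 0.42) and ID2 at 0.28 (adjusted p = 0.111). When only these 6 libraries were fitted, 3 were called, beside 492 of all 14225 genes. Without siDHX9 replicate 2 there were 19, beside 4255 of all genes. Between the 2 control groups, scrambled against DMSO, limma called 15 of the 40 lower and 5 higher, beside 9.22% and 9.7% of all genes, with a median log2 change of −0.18. Without scrambled replicates 1 and 2 that group holds 1 library, so nothing is read from the calls of this list in that fit.

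Upstream factors were listed as SRF, its partners and the CREB family, 9 genes, all above the minimum. SRF rose 1.83-fold with YK-4-279 (log2 0.87 ± 0.13 SE, limma adjusted p = 0.000842) and MKL2, an SRF coactivator, fell (log2 −0.52 ± 0.15 SE, adjusted p = 0.0369), and the other 7 were not called. For siDHX9, ELK3, a ternary complex factor, fell (log2 −1.01 ± 0.22 SE, adjusted p = 0.0077), and 8 were not called. Over all genes, 7.33% rose and 6.49% fell with the drug, and 8.75% rose and 7.97% fell for siDHX9. The median log2 changes of the list were 0.16 and −0.11. The SRF call held without any 1 library, the MKL2 call was lost without any 1 of the 6 drug or DMSO libraries (highest adjusted p = 0.127), and ELK3 was at −0.71 without scrambled replicates 1 and 2 (adjusted p = 0.206).

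Of 18 ERK cascade genes, limma called 0 with YK-4-279, beside 7.33% higher and 6.49% lower over all genes. At an unadjusted p under 0.05 there were 8 of the 18, beside 4201 of all 14225 genes. For the drug edgeR called 0 of the 18, beside 1998 of all genes, and DESeq2 called 3, beside 2539. The median log2 change was 0.18. For siDHX9 against scrambled, 2 rose and 5 fell, beside 8.75% and 7.97% of all genes, with a median of −0.17. SOS2, a RAS exchange factor, fell by 0.78 ± 0.16 SE (limma adjusted p = 0.00706) and BRAF by 0.44 ± 0.13 SE (adjusted p = 0.0361). RPS6KA2, a ribosomal S6 kinase, rose by 1.52 ± 0.42 SE (adjusted p = 0.0265) at a low level, 10.1 to 13.4 in siDHX9 and 2.99 to 3.70 in scrambled libraries. Without scrambled replicates 1 and 2, 1 of the 18 was called, and SOS2 was at −0.75 (adjusted p = 0.13), BRAF at −0.35 (adjusted p = 0.35) and RPS6KA2 at 1.67 (adjusted p = 0.146). Without siDHX9 replicate 2, 6 were called for the drug, beside 2795 of all 14225 genes, and 10 for siDHX9, beside 4255. Without siDHX9 replicate 3 there were 5 for the drug, beside 2669, and 3 for siDHX9, beside 1244. For siDHX9 there were 2 without scrambled replicate 2, beside 1410. Without scrambled replicate 1 or siDHX9 replicate 1 there were 3, beside 1255 and 1301.

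Reported EGR1 target genes numbered 17, of which 14 were above the minimum. With YK-4-279, where EGR1 was high, 3 rose, 1 fell and 10 were not called, beside 7.33% higher and 6.49% lower over all genes, with a median log2 change of 0.16. The growth factor TGFB1 rose by 0.68 ± 0.17 SE (limma adjusted p = 0.0173) and CCND1, cyclin D1, by 0.47 ± 0.09 SE (adjusted p = 0.00382), and F3, tissue factor, fell by 0.44 ± 0.12 SE (adjusted p = 0.0272). For siDHX9, where EGR1 was low, 2 rose, 1 fell and 11 were not called, beside 8.75% higher and 7.97% lower over all genes. ICAM1, an adhesion receptor in an entry shared with ICAM4, rose by 0.72 ± 0.12 SE (adjusted p = 0.00187) and F3 by 0.44 ± 0.12 SE (adjusted p = 0.0246). FN1, fibronectin, fell by 0.54 ± 0.09 SE (adjusted p = 0.00144). Without scrambled replicates 1 and 2, ICAM1 was at 0.88 (adjusted p = 0.0157), F3 at 0.30 (adjusted p = 0.363) and FN1 at −0.41 (adjusted p = 0.0771). With the drug, the call of CCND1 held without any 1 library, while those of TGFB1 (highest adjusted p = 0.0848) and F3 (highest adjusted p = 0.105) did not. The entries of TGFB1, CCND1 and ICAM1 overlap other genes, BCKDHA, ORAOV1 and both MRPL4 and S1PR2, so their counts are uncertain where strand was not used.

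Among 7 neuronal activity genes, which are induced in neurons together with ARC, 5 were above the minimum. VGF, a neuropeptide precursor, had 84.3, 94.5 and 74.6 normalised counts with YK-4-279 and 23.9, 39.7 and 28.3 in DMSO, and 76.6, 64.0 and 95.1 in siDHX9 and 16.2, 16.6 and 25.9 in scrambled libraries. It rose in both comparisons without overlap, as ARC did (log2 1.46 ± 0.27 SE with the drug, limma adjusted p = 0.00369, and 1.96 ± 0.27 SE for siDHX9, adjusted p = 0.000514). SCG2, a granin, rose for siDHX9 (log2 1.06 ± 0.06 SE, adjusted p = 3.47e-07), and NRN1, a neurite growth factor, fell by 0.20 ± 0.06 SE with the drug (adjusted p = 0.0362) and rose by 0.32 ± 0.06 SE for siDHX9 (adjusted p = 0.00298). The list thus had 1 gene higher and 1 lower with the drug, beside 7.33% and 6.49% of all genes, and 3 higher for siDHX9, beside 8.75%. The medians of these 5 genes were 0.19 with the drug and 0.44 for siDHX9. Without scrambled replicates 1 and 2, VGF was at 1.54 (adjusted p = 0.0374), SCG2 at 1.03 (adjusted p = 0.000148) and NRN1 at 0.29 (adjusted p = 0.0701), and the drug call of NRN1 was lost without any 1 of the 6 drug or DMSO libraries (highest adjusted p = 0.128).

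NuRD subunits, the partners of NAB2 in repression, were all 11 above the minimum. With YK-4-279, 3 rose and 1 fell, beside 7.33% and 6.49% of all genes: GATAD2A (log2 0.57 ± 0.11 SE, limma adjusted p = 0.00396), MTA1 (0.41 ± 0.09 SE, adjusted p = 0.00888), MTA2 (0.29 ± 0.07 SE, adjusted p = 0.0174) and RBBP7 (−0.20 ± 0.06 SE, adjusted p = 0.0373). For siDHX9, GATAD2B fell by 0.73 ± 0.21 SE (adjusted p = 0.0336) and the remodelling ATPase CHD4 by 0.34 ± 0.08 SE (adjusted p = 0.0155), while CHD3 rose by 0.23 ± 0.07 SE (adjusted p = 0.0463), 1 higher and 2 lower beside 8.75% and 7.97% of all genes. The medians were 0.08 and −0.02, beside 0.02 and −0.002 for all genes. Without scrambled replicates 1 and 2, limma called 0 for siDHX9, against 1 at an unadjusted p under 0.05, and with the drug GATAD2A alone of these stayed called without any 1 library.

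The profile of EGR1 over the 12 libraries was compared with those of 11387 named entries above the minimum with a mean of at least 100 in their highest group, by the root mean square difference of log2 values centred on their own means. The closest was FOSB, at 0.781, followed by RMRP, the RNA of RNase MRP, at 0.824. The others were the entry of MIR3687-1 and MIR3687-2 at 0.871, PYGM, muscle glycogen phosphorylase, at 0.877, PPP1R1B, a phosphatase inhibitor, at 0.910, the entry of MIR3648-1 and MIR3648-2 at 0.915, the ribosomal RNA entry at 0.915 and SP110, a nuclear body protein, at 0.939. The microRNA entries lie in ribosomal RNA gene repeats, where near-identical copies make values uncertain. All 8 had their highest group mean with YK-4-279, for PYGM 124 against 32.6 in DMSO, 36.1 in siDHX9 and 33.4 in scrambled libraries, and for SP110 375.5 against 209.8, 102 and 137 in the same groups. This follows from the choice by likeness to EGR1, itself highest with the drug, so nothing is read from it. FOSB, RMRP, PYGM, PPP1R1B and the entry of MIR3687-1 and MIR3687-2 also reached the mean of 100 in the YK-4-279 group only.

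**Figure D4:**
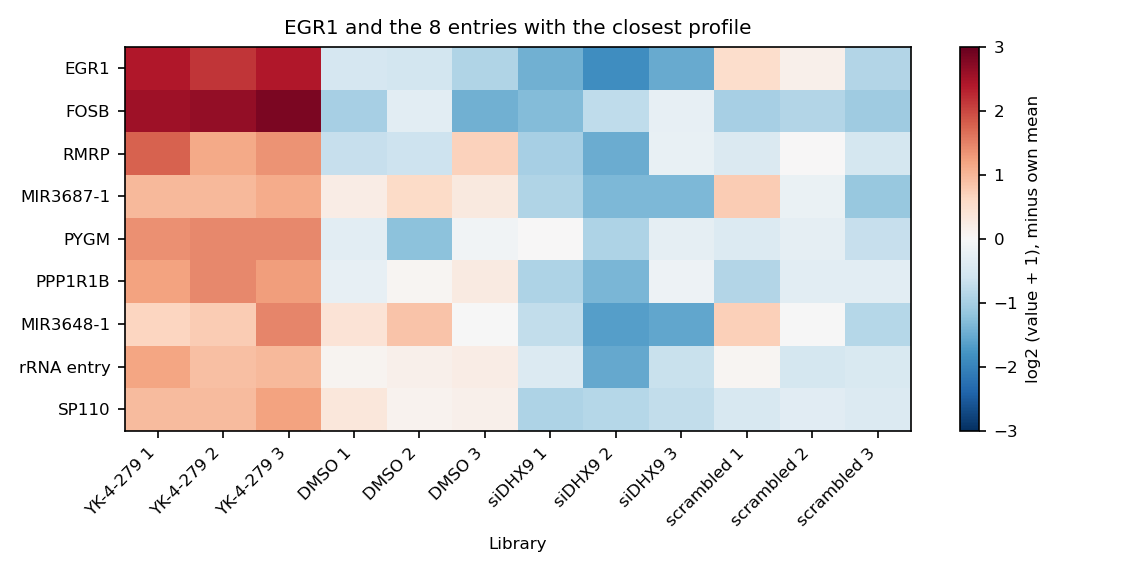
Log2 normalised counts + 1 minus each entry's mean over the 12 libraries (colour, from −3 to 3) for EGR1 and the 8 entries with the closest profiles (rows, closest at the top) in each library (columns). The YK-4-279 columns are red in every row, which follows from the choice by likeness to EGR1, and the EGR1 row is blue in all siDHX9 columns.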

How the data were processed

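Per the file headers, the deposited values are signal: read counts that the authors normalised with DESeq size factors, per gene and library. The submitters' processing notes name FastQC, Picard, SAMtools, STAR 2.4.0, DESeq and the hg19 build, without order or settings. The sources used here do not state whether counting used strand. Dividing each column by the value of 1 read gave whole reads within 0.1 for 100% of values above 0, summing to 38.6 to 65.5 times 1e6 reads per library, used for depth, edgeR and DESeq2. Counts of any replicate pair of a group differed beyond counting error, and depth bounds counting error only, since reads carry no molecular identifiers.

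Of 78885 entries, 25787 carry a symbol, and the 14225 of these whose mean over all 12 libraries reached 10 were fitted in limma 3.58.1 (R 4.3.3) as log2(value + 1), with 1 mean per group, moderation along the mean-variance trend and, on the residual side, 8 degrees of freedom. Adjusted p values are two-sided with Benjamini-Hochberg adjustment over those genes, and a gene was called at an adjusted p under 0.05. Of the 14225, 591 entries carry more than 1 name. DHX9 also had an exact permutation test. The procedure was run on simulated data in which all groups had the same spread, so that run does not cover groups of unequal spread.

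The members, the gene lists and the tests were chosen with earlier results of these data known. Named genes are the 10 members, DHX9, up to 4 called genes of largest change per list and comparison, the 8 profiles closest to EGR1, and genes that overlap or share an entry with these. The integrated stress response list and the fit without scrambled replicates 1 and 2 were added after the data were seen. Motifs were searched in RefSeq promoter windows of GRCh38.p14, a build other than that of the table, so no coordinates were carried between them. Alternatives were added values of 0.5 and 10, a minimum mean of 50 or none, quantile normalisation, TMM factors, only the 6 libraries compared, edgeR 4.0.16, DESeq2 1.42.0, a block for the replicate number, and each library left out. Single results for some listed genes are not reported here.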

Additional observations from a re-analysis of the deposited data

How the results depend on the processing

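Fitting only the 6 libraries compared gave 4270 genes called for YK-4-279 minus DMSO, against 1965 with all 12 libraries, and 492 for siDHX9 minus scrambled, against 2378. It called 1 member for siDHX9, 21 and 3 of the other immediate early genes for the drug and siDHX9, 5 SRF-related genes for the drug, 8 and 1 ERK cascade genes, and 0 NuRD subunits for siDHX9 (3 at an unadjusted p under 0.05). Without scrambled replicates 1 and 2, 469 genes were called for siDHX9, 339 for scrambled minus DMSO (2692 with all libraries) and 440 for the difference of effects (1379 with all libraries). The members called were then 0 for siDHX9 and 0 for scrambled minus DMSO, each against 2 at an unadjusted p under 0.05, while the siDHX9 lists had 3 other immediate early genes, 0 SRF-related genes, 1 ERK cascade gene and 0 NuRD subunits. DESeq2 called 2097 genes for the difference of effects. It called 2 SRF-related genes for siDHX9, beside 3195 of all genes, and 3 ERK cascade genes for the drug, beside 2539. Of the ERK cascade, 1 gene was called for the drug with 10 added, beside 2021 of all genes. There were 2 with a minimum mean of 50, beside 1970, and 3 with quantile normalisation, beside 2052. For siDHX9 there were 4 with no minimum, beside 1861, and that setting also left 1 NuRD subunit. The cause of these changes was not tested. Among members, EGR4 lost its drug call with 0.5 added, TMM factors, no minimum and the replicate block, and EGR3 gained one with no minimum. On the log2 scale EGR1 in scrambled minus DMSO was 0.59 with all libraries and −0.23 without scrambled replicates 1 and 2.

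Same-numbered libraries had weak correlations of deviations, 0.12, 0.05 and −0.01 for YK-4-279 and DMSO, and 0.05, 0.06 and 0.08 for siDHX9 and scrambled. Libraries of unlike number had −0.14 to 0.08 and −0.09 to 0.04. These values do not settle whether replicate numbers pair the samples. With the replicate block 1601 genes were called for the drug and 2118 for siDHX9, with 3 and 2 members, 1 SRF-related gene and 1 neuronal activity gene for the drug.

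Leaving out 1 library at a time gave 858 to 2795 genes called for the drug, 1244 to 4255 for siDHX9, 1431 to 3485 for scrambled minus DMSO and 762 to 1883 for the difference, and 2 to 4, 2 to 3, 1 to 5 and 2 to 2 members. For the drug and siDHX9 the lists gave 5 to 15 and 6 to 19 other immediate early genes, 1 to 3 and 1 to 3 SRF-related genes, 0 to 6 and 2 to 10 ERK cascade genes, 2 to 5 and 2 to 4 EGR1 targets, 1 to 3 and 3 to 4 neuronal activity genes, and 1 to 5 and 0 to 4 NuRD subunits. DHX9 ranged from −0.72 to −0.62. No result changed sign among those called. EGR3, EGR4 and RPS6KA2 rested on few reads. Member counts in comparisons with drug or DMSO libraries are a description.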

Other observations

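The wider immediate early genes differed between the 2 control groups as well. In scrambled against DMSO libraries, FOS fell the most of the 40 listed genes, with a change of −4.11 ± 0.21 SE on the log2 scale (limma adjusted p = 2.57e-07), and ATF3 was higher, at 3.56 ± 0.50 SE (adjusted p = 0.000515). ATF3 had 366, 340.3 and 64.8 normalised counts in scrambled libraries and 17.2, 11.9 and 20.5 in DMSO, so scrambled replicates 1 and 2 were far above replicate 3. FOSL1 was higher by 1.13 ± 0.28 SE (adjusted p = 0.0138), with 61.3, 79.5 and 93.8 in scrambled libraries and 33.6, 25.8 and 47.5 in DMSO. FOSB had similar means, 41.3 in scrambled and 45.7 in DMSO libraries. In the same comparison 10 of 11 stress genes were called higher, beside 9.7% of all genes. That list was chosen after these libraries were seen, so nothing is read from the count. The mean of the stress genes was 1.64, 1.38 and 0.18 in scrambled replicates 1, 2 and 3, and −0.61 to −0.44 in DMSO libraries. Transfection and harvest time differ together between these groups and cannot be told apart.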
